A study of Homo sapiens with 2 samples.

Results

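TP53INP1, BAX, BCL2 and DDIT3 are 4 genes of cell stress and programmed cell death, and they were taken from the 14884 genes that the array's probe table named. A probe set belonged to the group when its gene symbol was one of these names, which gave 4 probe sets, 1 for each gene. Expression was measured in UACC62, an established human melanoma cell line grown in DMEM with serum. One culture received a non-targeting siRNA (control siRNA) and the other an siRNA specific for FOSL1 (FOSL1 siRNA), and both were harvested at day 3. FOSL1 encodes FRA1, a FOS-type subunit of the transcription factor AP-1, and the title of the series names reprogramming and transformation of melanocytes by FOSL1 as its subject. Each condition was represented by 1 array, so no test could be run, no replicate error could be given, and all values below describe these 2 arrays. Off-target effects of the siRNA and loss of FOSL1 cannot be told apart with 1 siRNA condition. The genes had been chosen from these same differences, which are therefore given as a description.

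The 4 genes stand at different points of the decision between survival and death. p53 is a transcription factor that is stabilised by DNA damage and other stress, and it induces genes for cell cycle arrest, repair and apoptosis. The BCL2 family decides whether the outer mitochondrial membrane is opened: effectors such as BAX form pores, anti-apoptotic proteins such as BCL2 bind and restrain them, and BH3-only proteins relay death signals to both. CHOP, the product of DDIT3, is induced downstream of ATF4 when protein folding in the endoplasmic reticulum or amino acid supply fails, and prolonged CHOP activity favours death. In melanocytes BCL2 is known as a target of the lineage regulator MITF.

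The deposited values are log2 intensities, and a gene's measure was its value with FOSL1 siRNA minus its value with control siRNA, so that a positive log2 difference is higher with FOSL1 siRNA. Both arrays had a median of 6.88 to 6.89 over 53427 probe sets. A gene passed the filter on dim genes when its mean over both arrays was at least 8.02, the median of the named genes, and 7442 genes passed. FOSL1 itself had 11.90 with control siRNA and 10.38 after its own siRNA, the lowest difference of these genes (-1.53). Of the melanocyte markers MITF (difference 0.36), SOX10 (-0.30), TYR (-0.34) and MLANA (0.12) passed the filter, whereas PMEL (0.29) and TYRP1 (-0.02) did not. The summed log2 values of these 6 were 53.8 with control siRNA and 53.9 with the FOSL1 siRNA. Such a sum joins differences of both signs and does not show that the single markers were unchanged. None of the 6 named keratinocyte and epithelial markers passed it, with summed log2 values of 38.0 in each array. Of the 6 named markers of fibroblasts, endothelium and leukocytes, LUM and CD68 passed (differences of 0.48 and -0.63), and the summed log2 values of the 6 were 47.0 with control siRNA and 45.9 with the FOSL1 siRNA. The part of these markers in the differences below was not tested. In RNA from a whole culture, fewer cells of a kind and less RNA per cell cannot be told apart.

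TP53INP1 was the member with the largest difference. It encodes a p53-induced protein that takes part in p53 activation through the kinase HIPK2 and in autophagy. Its log2 value was 8.56 with control siRNA and 9.32 with the FOSL1 siRNA, a difference of 0.76 or a level 1.69-fold higher. Of the 7442 genes, 25 had a larger positive difference (0.336%). It was the single member that reached 1.5-fold, the size used here for counts, and 0 members reached it downward. Among all genes past the filter, 84 (1.13%) reached 1.5-fold upward and 57 (0.766%) downward. Because the members were picked with these values known, nothing is read from their share.

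DDIT3 had the second largest difference of the 4. Its log2 value was 8.02 with control siRNA and 8.53 with the FOSL1 siRNA, a difference of 0.51 or a level 1.43-fold higher, and 136 genes had a larger positive difference. The control value lay just under the filter, so that DDIT3 passed through its value with FOSL1 siRNA. BCL2 had 7.95 in the control array, also under the filter, and 8.32 with FOSL1 siRNA. This difference of 0.37 corresponds to a level 1.29-fold higher, and 377 genes (5.07%) had a larger one. TP53INP1, DDIT3 and BCL2 were thus all higher in the array with FOSL1 siRNA.

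BAX lay on the other side. Its log2 value was 10.13 with control siRNA and 9.86 with the FOSL1 siRNA, a difference of -0.27 or a level 1.21-fold lower, and 661 genes (8.88%) had a lower difference. Both values were well over the filter. The opposite directions of BCL2 and BAX changed the ratio of their signals by 0.65 log2 units in favour of BCL2, or 1.57-fold. Both differences were nearer to 0 with a trend on gene span removed, as given below (0.28 for BCL2 and -0.19 for BAX). The ratio would then be smaller, and both genes were chosen with their differences known. A ratio of signals shows an unequal change of the probe sets and gives no ratio of molecules or proteins.

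**Figure D1:**
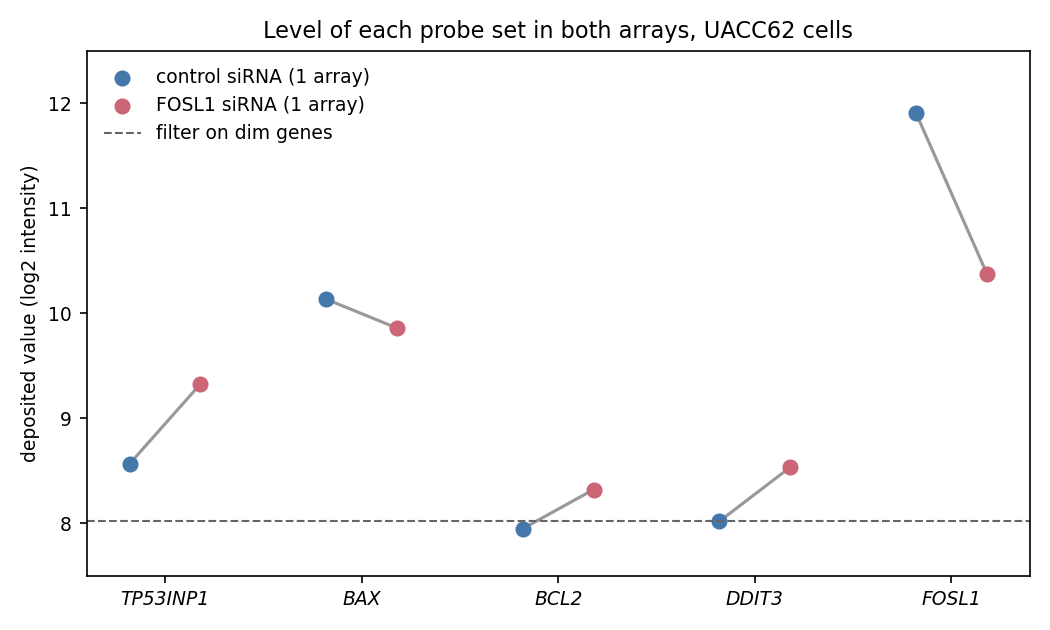
Deposited log2 intensity (vertical axis) of the 4 members and of FOSL1 in the control array (blue) and the array with FOSL1 siRNA (red), 1 array each, with a grey line joining the 2 values of a gene and a dashed line at the filter of 8.02. TP53INP1, BCL2 and DDIT3 are higher with FOSL1 siRNA, BAX and FOSL1 are lower, and the control values of BCL2 and DDIT3 lie at or under the dashed line; heights are compared within a gene only.

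Dim genes scatter more than bright ones on these arrays, which gives a scale for the differences in the absence of replicates. For each member the 500 genes nearest in mean log2 value were taken. For TP53INP1 the central 95% of these genes lay between -0.41 and 0.58, and its difference of 0.76 was outside that range. The range was -0.51 to 0.58 around DDIT3 and -0.49 to 0.56 around BCL2, and both differences lay inside it. Around BAX it was -0.33 to 0.40, and the difference of BAX was inside as well. A second scale came from 195 genes with at least 2 distinct probe sets past the filter, whose probe sets differed with an SD of 0.18 within a gene. All 4 members exceeded this SD, from 1.55 times for BAX to 4.30 times for TP53INP1. The differences of the genes of like brightness had larger SDs: 0.20 around BAX, 0.245 around TP53INP1, 0.26 around BCL2 and 0.28 around DDIT3. Because the members were chosen with their differences known, nothing is read from their size against these SDs. Both scales come from 1 pair of arrays and leave out the variation between cultures.

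**Figure D2:**
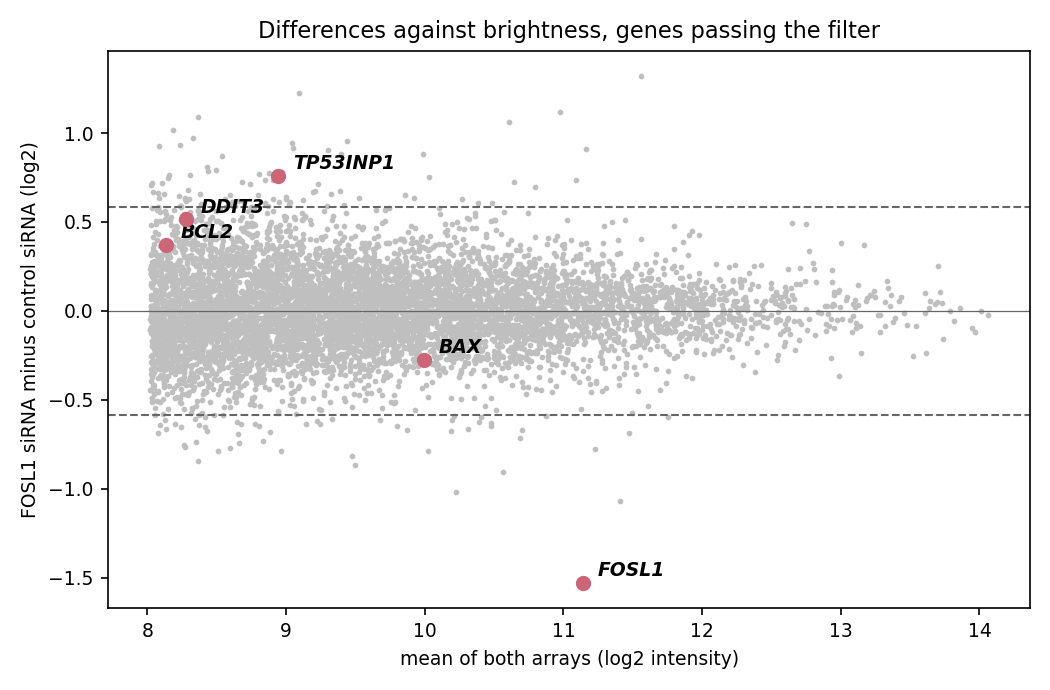
Log2 difference, FOSL1 siRNA minus control siRNA (vertical axis), against the mean log2 intensity of both arrays (horizontal axis) for the 7442 genes that passed the filter (grey points), with the members and FOSL1 in red and dashed lines at 1.5-fold. TP53INP1 lies above the upper line, DDIT3 and BCL2 lie at the dim end under it, BAX lies under 0 within the cloud, and FOSL1 is the lowest point.

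Differences also varied with gene length on these arrays. When the genes were ranked by span and divided into 4 equal groups, the group with the shortest span reached up to 10.1 kb from start to end in RefSeq on GRCh38.p14, with a median difference of -0.11 and 28.4% above 0. In the group with the longest span, from 67.5 kb, the median was 0.080 and 67.5% were above 0. BAX (6.92 kb) and DDIT3 (3.93 kb) belonged to the shortest group and BCL2 (197 kb) to the longest. When a smooth trend on span was removed, the difference of BAX was -0.19 and that of BCL2 was 0.28, both nearer to 0. That of DDIT3 was 0.61, past 1.5-fold, so that 2 members were then at least 1.5-fold higher. TP53INP1, with a span of 23.4 kb, stayed at 0.76. The part of gene span in the differences was not tested.

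Likeness between genes was measured as the gap between their log2 differences over these 2 arrays. Next to TP53INP1 lay PDCD4 (0.76), a translation inhibitor known as a programmed cell death gene, and MIR3198-1 (0.77) on the upper side, and GPR37 (0.75) and CCDC80 (0.75) on the lower. Next to DDIT3 lay MPHOSPH8, MOB1B, MAP2 and ZNF770, all between 0.51 and 0.52. Next to BCL2 lay ZNF26, ZNF107, LOC100506474 and CASD1, all at 0.37. Next to BAX lay HES4, PSD, MAPKAPK3 and SNAI1, all at -0.27. With 2 arrays many genes share a difference by its size alone, and PDCD4 (7.92), CCDC80 (7.78), MIR3198-1 (7.78) and MPHOSPH8 (7.87), like BCL2, were under the filter in the control array. PSD was under it with FOSL1 siRNA (7.94).

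The upstream sequences of the members were read for the AP-1 motif, because FOSL1 acts through it, and for elements of the ER stress response. RefSeq windows on GRCh38.p14 were at hand for 3 of the 4 members, BAX, BCL2 and DDIT3, and the 250 bases before the transcript start were searched on both strands. The BCL2 window overlapped the annotated span of BCL2 itself. Only DDIT3, with 2 windows, held the AP-1 motif TGANTCA. The same match lay 232 to 238 bases before 1 start and 235 to 241 before the other. None of the 3 genes held the C/EBP-ATF composite TGATGNAA, the cyclic AMP element TGACGTCA or a p53 element. The full ER stress element (CCAAT and CCACG with 9 bases between them) was absent from all 3 as well. The DDIT3 match lies inside the annotated span of MBD6, a neighbour transcribed the other way, whose log2 values were 9.20 and 9.02 (difference -0.18). The first stretch below, chr12:57520738-57520767 (minus strand), shows that match in capitals:
DDIT3, AP-1 match: cgcgcgcgcgcaTGACTCAcccacctcctc
The next stretch, chr12:57520518-57520714 (minus strand), runs up to the DDIT3 start and is free of other genes. Its capitals mark the ER stress element without its last base (CCAAT, 9 bases and CCAC), which was looked for after the sequence had been read:
DDIT3, proximal: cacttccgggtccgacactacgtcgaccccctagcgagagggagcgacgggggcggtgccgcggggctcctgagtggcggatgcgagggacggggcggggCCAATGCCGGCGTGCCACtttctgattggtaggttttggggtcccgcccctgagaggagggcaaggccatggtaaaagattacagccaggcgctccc
For contrast, the BAX window, chr19:48954625-48954874 (plus strand), had no AP-1 match. Its capitals mark the E-box CACGTG, the motif of MYC and of MITF and its relatives, also looked for after reading:
BAX: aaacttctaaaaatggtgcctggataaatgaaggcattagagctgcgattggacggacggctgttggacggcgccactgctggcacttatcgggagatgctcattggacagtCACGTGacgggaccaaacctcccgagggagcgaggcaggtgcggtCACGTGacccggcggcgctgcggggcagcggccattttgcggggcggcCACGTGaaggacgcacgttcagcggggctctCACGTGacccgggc

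Of all 35116 windows of this length, 6.57% held TGANTCA, 0.282% held the shortened ER stress element and 6.34% held at least 1 E-box. At least 4 E-boxes, the number in BAX, stood in 5 windows (0.0142%). The motif and this number were both taken from the BAX window, so the rarity is a description only. Among the 5996 genes that passed the filter and had a window, 337 held TGANTCA, and their median difference was 0.00087 against 0.0064 for the others. Of these 337, 2 (0.593%) reached 1.5-fold upward and 6 (1.78%) downward, beside 1.13% and 0.766% over all 7442 genes past the filter. The 7442 include genes with no window, and the shares over the 5996 were not computed. With counts this small, nothing is read from these shares. Of the 5996 genes, 701 held an E-box, with a median of 0.0032 against 0.0065 for the others. Of these 701, 2 (0.285%) reached 1.5-fold upward and 3 (0.428%) downward. The shortened ER stress element stood in 21 genes, with a median of -0.042 against 0.00615, and 0 of them reached 1.5-fold. A match is a run of letters, no binding was measured, and an absent match says only that the letters are not in the window.

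The other pore-forming effectors lay on the same side as BAX. BAK1, which with BAX opens the outer mitochondrial membrane, had log2 values of 11.02 and 10.78 (difference -0.23), and BOK, a related effector, had 8.82 and 8.40 (-0.42). All 3 effectors were therefore lower with FOSL1 siRNA, none by 1.5-fold. The other anti-apoptotic genes that passed the filter were lower with FOSL1 siRNA. BCL2L1, which encodes BCL-XL, differed by -0.19, BCL2A1, a short-lived survival protein and MITF target in melanoma, by -0.15, and MCL1 by -0.09. BCL2L10 was under the filter (5.79 and 5.88). With the span trend removed MCL1 was at 0.0022, too near 0 for a direction, and 2 of the 4 anti-apoptotic genes past the filter were above 0.

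BH3-only genes and the other genes listed with them were mostly below 0. Of the 17 listed, 15 had a named probe set and 10 passed the filter. Above 0 were 3 and below 0 were 7 (70%), against 50.1% below 0 over all genes that passed. With the span trend removed 3 were again above 0. BNIP2 had the largest positive difference, 0.34 by its brighter probe set and 0.10 by the other, which was under the filter (7.23 and 7.33). BNIP1 had 0.08. PMAIP1, which encodes NOXA, differed by 0.07, and BBC3, which encodes PUMA, by -0.10, and both are p53 targets that bind survival proteins. BCL2L12 (-0.23) and BNIP3L (-0.22), the latter a receptor for the removal of mitochondria, had the lowest differences. BAD, BNIP3 and BCL2L13 lay between -0.17 and -0.11, and BID, which links death receptors to mitochondria, was at -0.01. BCL2L11, which encodes BIM, differed by 0.36 but was dim (7.28 and 7.64). BIK, BMF, BCL2L14 and BCL2L15 were under the filter as well, with differences between -0.21 and -0.08.

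Over the family list as a whole, 23 of 26 listed genes were named and 17 passed the filter. Of these 17, 13 (76.5%) were below 0, and the median was -0.11. Over all genes that passed the filter 50.1% were below 0 and the median was -0.00077. Without BAX and BCL2, 12 of 15 were below 0 and the median was -0.11. With the span trend removed, 5 of the 17 were above 0 and the median was -0.080. None of the family was 1.5-fold higher or lower.

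**Figure D3:**
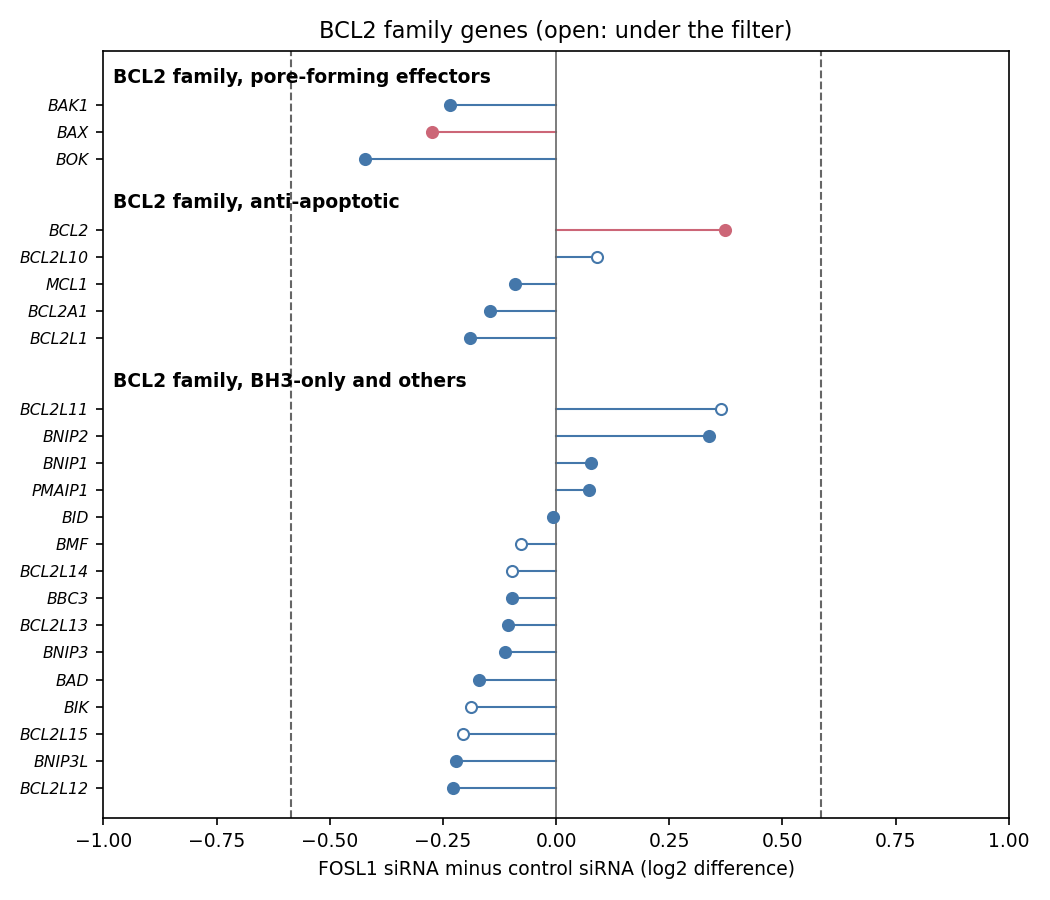
Log2 difference, FOSL1 siRNA minus control siRNA (horizontal axis), of the 23 named BCL2 family genes in 3 classes, with BAX and BCL2 in red, open points for genes under the filter and dashed lines at 1.5-fold; each point is 1 probe set from 1 array per condition. All 3 effectors lie below 0, BCL2 is the single anti-apoptotic gene above 0 that passed the filter (MCL1 joins it, at 0.0022, with the span trend removed), and no gene reaches a dashed line.

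Other p53 targets were nearer to 0 than TP53INP1. Of 47 listed targets, 27 had a named probe set and 23 passed the filter. In this group 14 were above 0 (60.9%) and 9 below, against 49.8% above 0 over all genes that passed, and the median was 0.07. Without TP53INP1 and BAX, 13 of 21 were above 0 (61.9%). TP53INP1 was the 1 target that reached 1.5-fold upward, and 0 reached it downward. It was chosen for its difference, so its place among the targets is a description. Next to TP53INP1 came RRM2B, a ribonucleotide reductase subunit for DNA repair, with log2 values of 9.75 and 10.13 (0.38). SESN1, a stress sensor that restrains mTORC1, had 8.07 and 8.42 (0.35). TIGAR (0.26), PLK2 (0.23) and CCNG1 (0.18) were on the same side. GDF15, a secreted stress cytokine, was at a high level in both arrays (13.67 and 13.77). On the other side, E2F7, a p53-induced repressor of E2F genes, had the lowest difference (-0.46), followed by BAX and TP53I3 (-0.21), an oxidoreductase. The median of the targets without TP53INP1 and BAX was 0.07, and with the span trend removed it was 0.020. MDM2 and CDKN1A had no probe set named in the table and were not analysed here.

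Regulators of p53 showed small differences. Of 17 listed, 12 were named and 9 passed the filter, with a median of 0.09. Above 0 were 7 of the 9 (77.8%), against 49.8% over all genes that passed. With the span trend removed 5 of the 9 were above 0 and the median was 0.030. ATR, a DNA damage kinase, had the largest (9.39 and 9.77, 0.38). MDM4, an inhibitor of p53, differed by 0.13 and HIPK2, a kinase of p53 that binds TP53INP1, by 0.08. With the span trend removed HIPK2 was at -0.020. The lowest were TP53BP1 (-0.12) and KAT5 (-0.11). CHEK2, picked after its value was seen, differed by 0.71 on a probe set under the filter (7.43 and 8.14). On another, dimmer still (3.80 and 4.09), it differed by 0.29. Without the filter 1.91% of 14884 genes were at least 1.5-fold higher.

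**Figure D4:**
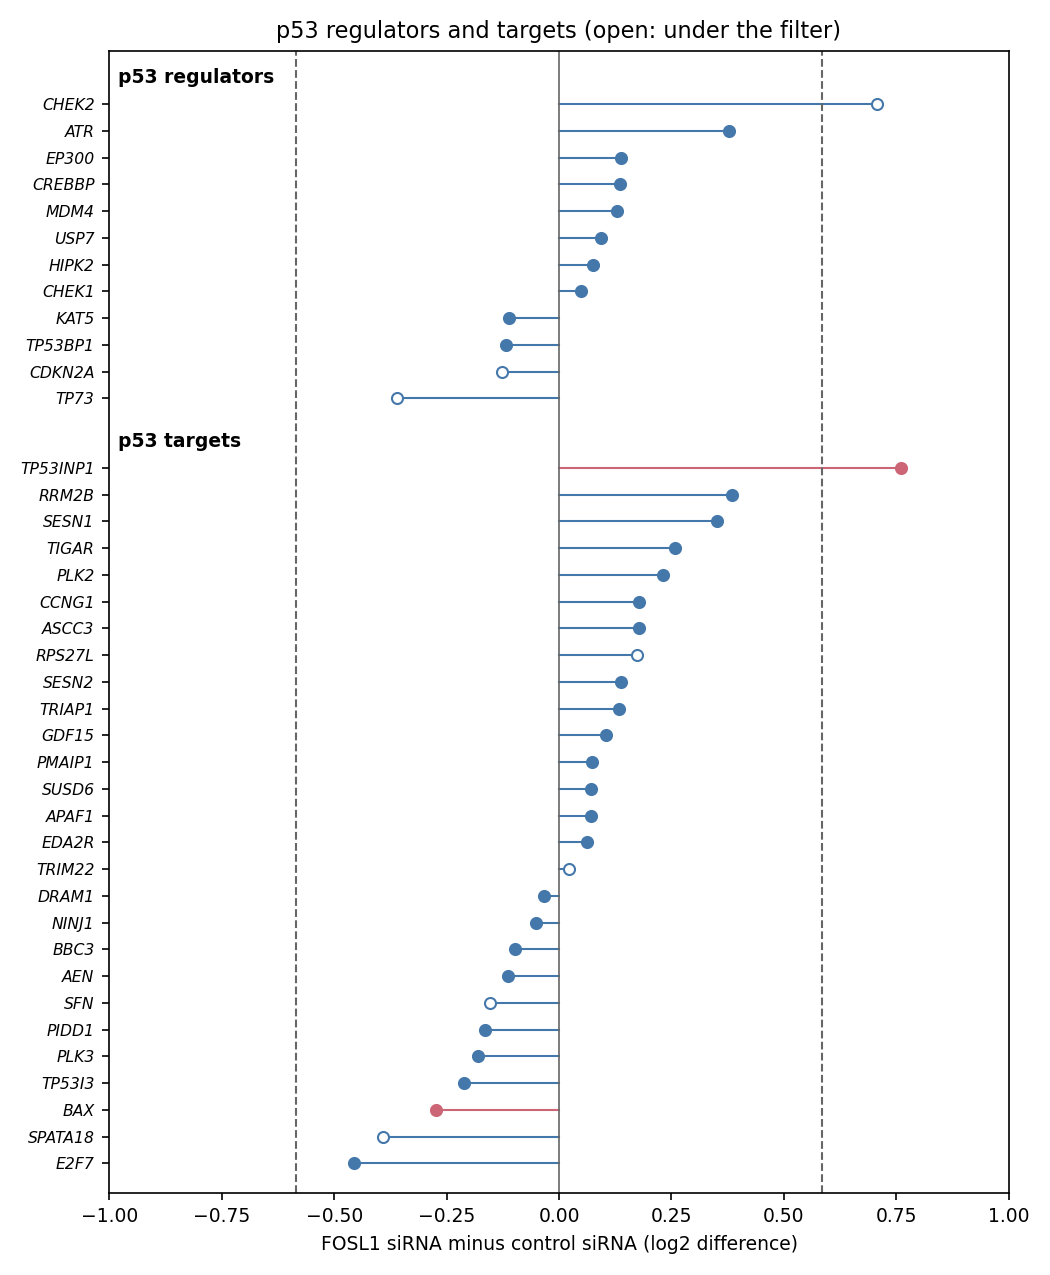
Log2 difference, FOSL1 siRNA minus control siRNA (horizontal axis), of the 12 named p53 regulators and the 27 named p53 targets, with TP53INP1 and BAX in red, open points for genes under the filter and dashed lines at 1.5-fold. TP53INP1 is the single filled point past a dashed line, and E2F7, at -0.46, is the lowest filled point.

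TP53INP1 also acts in autophagy, where it binds proteins of the LC3 and GABARAP group. Of 20 listed partners and autophagy genes, 16 were named and 13 passed, 7 above 0 and 6 below, and none by 1.5-fold. Their median was 0.08, but it was 0.0095 with the span trend removed and -0.053 with no filter. TP53INP2, the paralog of TP53INP1, had log2 values of 9.71 and 9.59 (-0.11), on the other side of 0. ATG5 (0.17) and ATG12 (0.16) were the highest, and ULK1, the kinase that starts autophagy, was the lowest (-0.27), followed by SQSTM1 (-0.12). MAP1LC3A, named after its value was seen, differed by -0.61 but was dim (7.74 and 7.13), and without the filter 1.43% of genes were at least 1.5-fold lower.

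Genes around DDIT3 lay on both sides of 0. ERN1, which encodes the ER stress sensor IRE1, had log2 values of 8.02 and 8.42 (0.41) and, like DDIT3, was just under the filter in the control array. EIF2AK3, which encodes the sensor PERK, had 9.23 and 9.53 (0.30). ATF6, the remaining sensor, had 11.17 in both arrays, a difference of 0.0051 that was -0.09 with the span trend removed. ATF4, the factor that induces DDIT3, had 11.61 in both arrays, and XBP1, the target of IRE1, differed by -0.06. With the span trend removed ATF4 was at 0.11 and XBP1 at 0.033, ERN1 at 0.33 and EIF2AK3 at 0.24. Of the 16 listed regulators and partners, 11 were named and 10 passed, 6 above 0 and 4 below, with a median of 0.0042, against -0.00077 over all genes past the filter. ATF5 was the lowest of these at -0.12, with ATF2 at -0.06, and ATF3 was under the filter (7.71 and 7.53). None reached 1.5-fold.

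Targets of ATF4 and CHOP were near 0. Of 25 listed, 16 were named and 13 passed, with a median of -0.05. Above 0 were 4 and below 0 were 9 (69.2%), against 50.1% below 0 over all genes that passed. With the span trend removed 5 were above 0 and the median was -0.031. CARS1, a transfer RNA synthetase, was the highest (0.19), followed by SESN2 (0.14), and TRIB3, a pseudokinase induced by CHOP, had 9.67 and 9.79 (0.12). VLDLR, a lipoprotein receptor, had the lowest difference (-0.24), and ERO1A, an oxidase of protein folding induced by CHOP, had 11.05 and 10.86 (-0.20). ASNS, asparagine synthetase and a standard readout of ATF4, differed by -0.03. Genes of the ER chaperone list differed as little. Of 18 listed, 7 were named and all 7 passed, with a median of 0.0033. SEL1L was the highest (0.14) and MANF the lowest (-0.08). With the span trend removed all 7 were above 0 and the median was 0.052. HSPA5, the main ER chaperone, had no named probe set. DDIT3 was chosen for its difference, so its place beside these lists is a description.

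**Figure D5:**
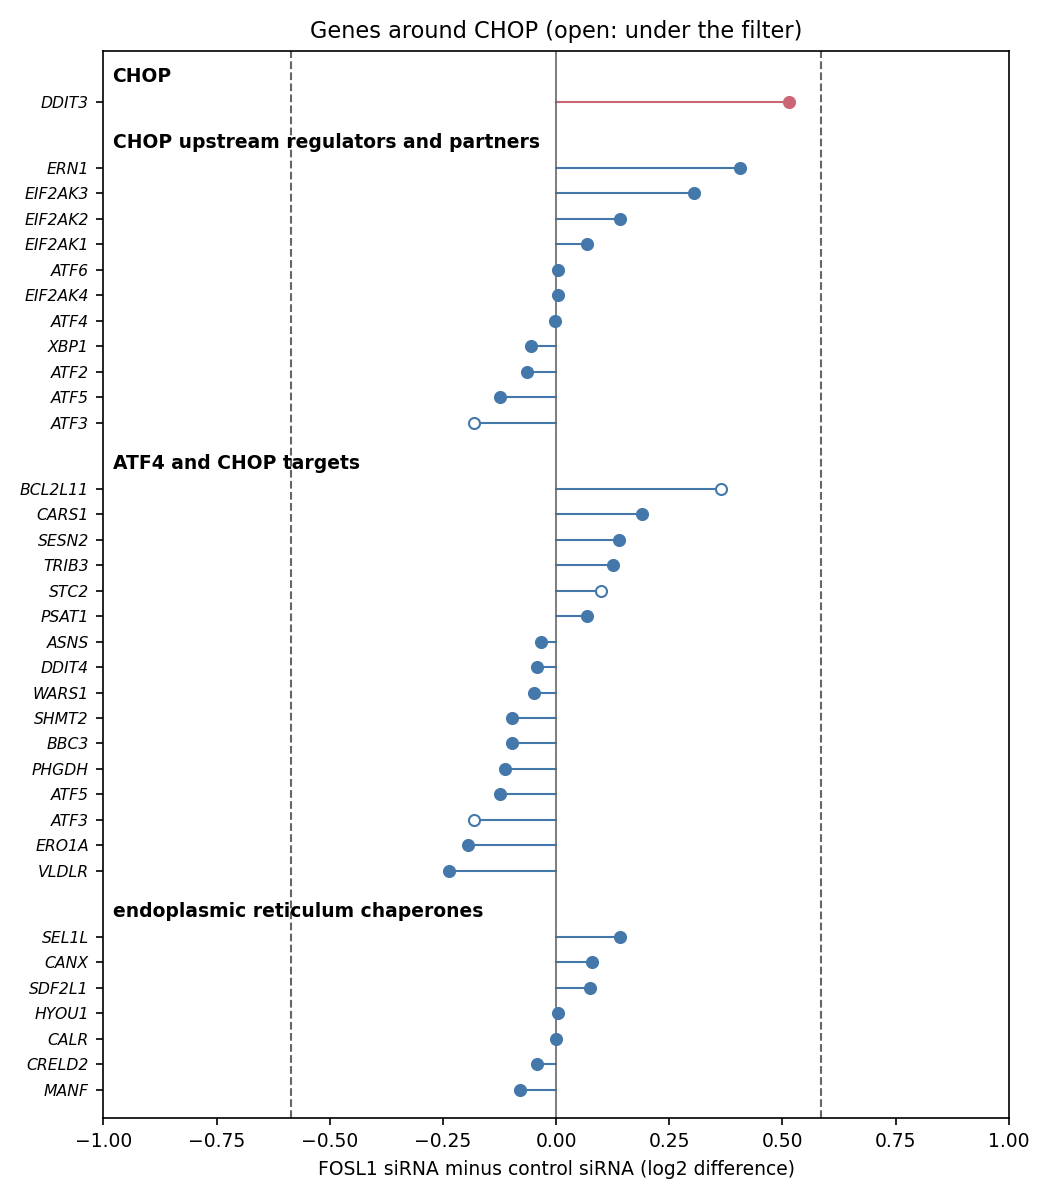
Log2 difference, FOSL1 siRNA minus control siRNA (horizontal axis), of DDIT3 (CHOP, red), its named upstream regulators and partners, targets of ATF4 and CHOP, and endoplasmic reticulum chaperones, with open points for genes under the filter and dashed lines at 1.5-fold. DDIT3 at 0.51 lies to the right of every other gene shown, ERN1 follows at 0.41, and the 7 genes of the chaperone list lie between -0.08 and 0.14.

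The measured part of a list of caspases, caspase inhibitors, channels and death receptor genes was near 0. Of the 35 listed, 15 were named and 13 passed, 6 above 0 and 7 below, with a median of -0.0048. With the span trend removed 9 of the 13 were above 0 and the median was 0.0027. No caspase and no death receptor had a named probe set, so the list says nothing about either. APAF1, the scaffold of the apoptosome, differed by 0.07. BIRC6 (0.26), a giant inhibitor of apoptosis, and CFLAR (0.16), which restrains caspase-8 and was under the filter in the control array, were the highest. TRADD (-0.30), an adaptor of tumour necrosis factor receptors, and XIAP (-0.18), an inhibitor of caspases, were the lowest. None was 1.5-fold higher or lower.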

How the data were processed

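RNA of 1 UACC62 culture per condition was amplified and measured after biotin labelling on 1 Affymetrix array, per the labels' protocols. The deposited values are on a log scale, taken as log2 from their range (2.23 to 14.81). The log base, background correction, probe summary, normalization and genome build are not given in the sources used here. Sorted values of both arrays differed by at most 0.030 at the same rank, so these values cannot show a change in the RNA content of a cell. The number of arrays, 1 per condition, limits the precision.

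The probe table named 16098 probe sets, each with 1 symbol, and 37329 had no name and were left out. All 14884 genes matched RefSeq (GRCh38.p14) by Entrez ID. The brightest probe set stood for a gene. Differences, counts, medians and loess trends (span 0.3) were computed with Python 3.11.15, pandas 2.3.3 and statsmodels 0.14.6, and the scripts were tested on simulated data. Named genes were the members, FOSL1, the BCL2 family, list genes past 1.5-fold or else up to 2 per direction, MDM2, CDKN1A, ATF4 and the neighbours in difference. Others are added for context, and 1 gene of the rule is not reported here. The members and lists were chosen with earlier results of these data known.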

Additional observations from a re-analysis of the deposited data

How the results depend on the processing

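No paired analysis was possible because each condition had 1 array and the labels give no shared replicate number. The differences of the 4 members stayed within 1 SD between probe sets of their values under 5 alternatives each: median centring, removal of a trend on brightness or on span, quantile normalization across named genes, and the mean of probe sets, the last unaltered by construction. TP53INP1 lay between 0.75 and 0.76, DDIT3 between 0.51 and 0.61, BCL2 between 0.28 and 0.40 and BAX between -0.28 and -0.19. Genes at least 1.5-fold higher and lower numbered 84 and 57. They numbered 284 and 213 with no filter, 15 and 23 under a filter at the 75th percentile, and 6 and 3 at 2-fold, and 33 were lower with the span trend removed. With that trend removed the medians were 0.030 for p53 regulators, 0.020 for p53 targets and 0.0095 for the autophagy list. At the 75th percentile filter the p53 targets had 0.12 and the autophagy list 0.014, and with no filter the latter had -0.053. As means, anti-apoptotic genes had -0.014, BH3-only and other genes -0.045, CHOP regulators 0.068 and the autophagy list 0.0081. With no filter 1.91% of genes were at least 1.5-fold higher and 1.43% lower, against 1.13% and 0.766% under the main filter. The number of genes tested and the share reaching 1.5-fold thus both shifted, and the cause of the shifts was not tested. The other 70 list values moved less than the SD between probe sets over the square root of the members.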
